A study of Homo sapiens with 4 samples.

Results

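Glucose breakdown and the wider set of genes induced by low oxygen were examined in vemurafenib-resistant and parental A375 cells through 41 genes given as a fixed list. Of these, 24 encode glucose transporters, glycolytic enzymes and their regulators, and proteins that handle pyruvate and lactate. The other 17 are hypoxia targets outside glycolysis, such as the carbonic anhydrase gene CA12. All 41 were found by symbol among 62649 gene identifiers, and all 41 were among the 24961 genes with enough counts to be tested. The list was not chosen by a measured value, but it was put together with earlier results of these data known, and CA12 was singled out in it.

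A375 is a human melanoma cell line with an activating BRAF mutation. The resistant group held 2 libraries from A375 cells adapted to vemurafenib, an inhibitor of mutant BRAF, by stepping the drug up weekly from 0.1 to 6.4 µM, and the control group held 2 libraries from parental A375 cells. Both were grown in the same serum-supplemented medium. From the labels it is not known if the drug was still in the medium at harvest, if the resistant cells were 1 clone, or at what oxygen tension they grew. Replicates are called biological in the series, but no separate cultures are named. The p-values therefore rest on the variation between these libraries, part of which may be technical.

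Hypoxia-inducible factors are transcription factors made of an oxygen-labile alpha subunit, encoded by HIF1A or EPAS1, and the stable partner ARNT. When oxygen is present, prolyl hydroxylases of the EGLN family mark the alpha subunit and VHL targets it for destruction. When oxygen is short, the factor persists and switches on most glycolytic genes together with genes for pH control, vessel growth and mitophagy. In BRAF-mutant melanoma, glycolysis is also held up by MAPK signalling, and BRAF inhibitors are known to lower glucose uptake in sensitive cells.

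Counts assigned to genes ranged from 68022689 to 87178097 per library. Every count in control replicate 1 was even (0 odd values), whereas the other libraries held 16285 to 17901 odd counts. Alignments of control replicate 1 may therefore have been counted 2 times, so its printed counts, and its floor of 3 counts, may stand for fewer reads than they show. With its counts divided by 2, the log2 fold change was 3.42 for CA12 and 1.35 for EGLN3, and that of CA9 moved by less than its SE. Across 10089 genes with at least 10 CPM (counts scaled to the TMM-corrected library total), control replicate 2 correlated with the resistant libraries at r = 0.957 and 0.965, against 0.912 and 0.921 for control replicate 1. The r between replicates was 0.978 in resistant cells and 0.961 in controls. These values describe genes within 4 libraries and carry no p. Of the melanoma and neural crest markers, SOX10 and ERBB3 were abundant in every library and made up most of the summed list. MITF had 12.3 and 23.4 CPM in resistant cells and 42.2 and 22.8 CPM in controls (log2 -0.86, edgeR adjusted p = 0.371). The groups overlapped for MITF and for S100B. PMEL had 1.08 and 1.52 CPM in resistant cells and 2.07 and 1.27 CPM in controls. MLANA had 2.34 and 1.12 CPM in resistant cells and 1.26 and 1.34 CPM in controls. The marker list summed to 1283 to 1417 CPM in resistant cells and 1065 to 1631 CPM in controls. TYR, which defines pigmented melanocytes, had 0.098 and 0.181 CPM in resistant cells and 0.168 and 0.208 CPM in controls. The summed fibroblast markers came to 9.18 to 10.1 CPM in resistant cells and 8.12 to 11.4 CPM in controls. Keratinocyte markers summed to 0.399 to 0.647 CPM in resistant cells and 1.68 to 2.33 CPM in controls, leukocyte markers to 0.399 to 0.886 CPM in resistant cells and 0.0559 to 0.970 CPM in controls, and endothelial markers to 0.450 to 0.581 CPM in resistant cells and 0.797 to 1.12 CPM in controls. The keratinocyte and endothelial sums did not overlap between the groups, as was the case for 44.6% of single genes tested. Taken alone, the keratinocyte marker KRT5 and the endothelial marker PECAM1 overlapped. KRT14, a basal keratin and 1 of the 2 keratinocyte markers, was 5.91-fold lower in resistant cells (edgeR adjusted p = 0.0355). LUM, 1 of the 4 fibroblast markers, was 7.10-fold lower (edgeR adjusted p = 0.0569, also called by DESeq2). Both were low, at no more than 2.08 CPM for KRT14 and 2.18 CPM for LUM in any library. Their lists did not share this direction. The log2 fold change was 0.41 for KRT5, 0.28 for COL1A1, 0.99 for COL3A1 and -0.97 for DCN. The part of these cell type markers in the results was not tested. The leukocyte gene CD3E had 0 counts in 3 of the 4 libraries.

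The promoters of 4 genes with large differences between the groups are shown, each as the 250 bases before the start, in the direction of transcription. They come from RefSeq on GRCh38.p14, and capitals mark the core hypoxia response words ACGTG and GCGTG on either strand, overlapping matches included. CA12 (chr15:63381847-63382096, minus strand) and CA9 (chr9:35673678-35673927, plus strand) encode related carbonic anhydrases with fold changes of opposite sign, while SLC2A1 (chr1:42958869-42959118, minus strand) and PFKFB4 (chr3:48556804-48557053, minus strand) had the lowest fold changes among glycolysis genes after ALDOC.
CA12: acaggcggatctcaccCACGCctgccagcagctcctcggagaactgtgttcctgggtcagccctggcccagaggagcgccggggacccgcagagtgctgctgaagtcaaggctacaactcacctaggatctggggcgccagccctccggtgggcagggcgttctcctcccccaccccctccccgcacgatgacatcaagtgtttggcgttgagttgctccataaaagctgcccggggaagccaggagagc
CA9: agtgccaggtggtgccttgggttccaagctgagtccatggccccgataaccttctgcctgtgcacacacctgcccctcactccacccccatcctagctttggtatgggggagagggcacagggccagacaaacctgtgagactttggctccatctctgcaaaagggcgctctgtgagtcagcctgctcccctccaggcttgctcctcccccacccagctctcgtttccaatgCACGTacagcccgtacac
SLC2A1: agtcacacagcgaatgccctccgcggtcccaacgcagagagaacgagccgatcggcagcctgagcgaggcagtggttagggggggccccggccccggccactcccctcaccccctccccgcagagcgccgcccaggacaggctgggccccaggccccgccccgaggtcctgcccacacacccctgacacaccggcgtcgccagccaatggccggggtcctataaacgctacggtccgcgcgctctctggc
PFKFB4: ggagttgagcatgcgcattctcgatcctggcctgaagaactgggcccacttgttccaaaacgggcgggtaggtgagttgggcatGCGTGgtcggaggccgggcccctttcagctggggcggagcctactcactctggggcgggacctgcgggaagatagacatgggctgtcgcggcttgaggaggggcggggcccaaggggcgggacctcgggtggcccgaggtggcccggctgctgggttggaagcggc

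CA12, CA9 and PFKFB4 each held 1 such word, which began 234 bases before the start in CA12, 18 bases before it in CA9 and 166 bases before it in PFKFB4, and SLC2A1 held 0 in this window. RefSeq start sites were available for 35 of the 41 genes, as 67 promoters of the same length. At least 1 word was present in 41 of these 67 promoters (61.2%), against 43.2% of 35116 promoters of all genes. By class, it was present in 54.2% of 48 glycolysis promoters and 78.9% of 19 promoters of other hypoxia targets. These shares count promoters, so genes with many starts weigh more and the class shares do not compare genes. HK1 and PFKM, both glycolysis genes, had several starts, most of them without a word. Counted by gene, 29 of the 35 had a word in at least 1 promoter. Alternative starts of 1 gene share sequence. A match describes letters, not binding.

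Resistant cells did not show a shared rise or fall of the hypoxia set. In the comparison of resistant with control cells, which asks how drug-adapted cells differ from the line they came from, CA12 rose and was the 1 gene of the 41 past the threshold (quasi-likelihood test of edgeR, p adjusted over all genes by Benjamini-Hochberg, cutoff 0.05). That is 2.44% of the 41, against 1.09% of all genes tested, of which 0.577% were called higher and 0.513% lower. An unadjusted p under 0.05 was reached by 11 of the 41 (26.8%), against 13.5% of all genes. Among these 11, 4 had higher values in resistant cells (background 6.14%) and 7 had lower values (background 7.32%). For 19 of the 41 (46.3%) the values of the groups did not overlap, close to the 44.6% of all genes. Resistant libraries lay below both controls in 12 of the 41 (background 22.2%) and above both in 7 (background 22.4%). DESeq2 called 4 of the 41, 1 higher and 3 lower, against 6.46% of the 20605 genes to which it gave an adjusted p (3.04% higher and 3.42% lower). In bulk RNA, fewer cells of a type and less RNA per cell cannot be told apart.

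**Figure D1:**
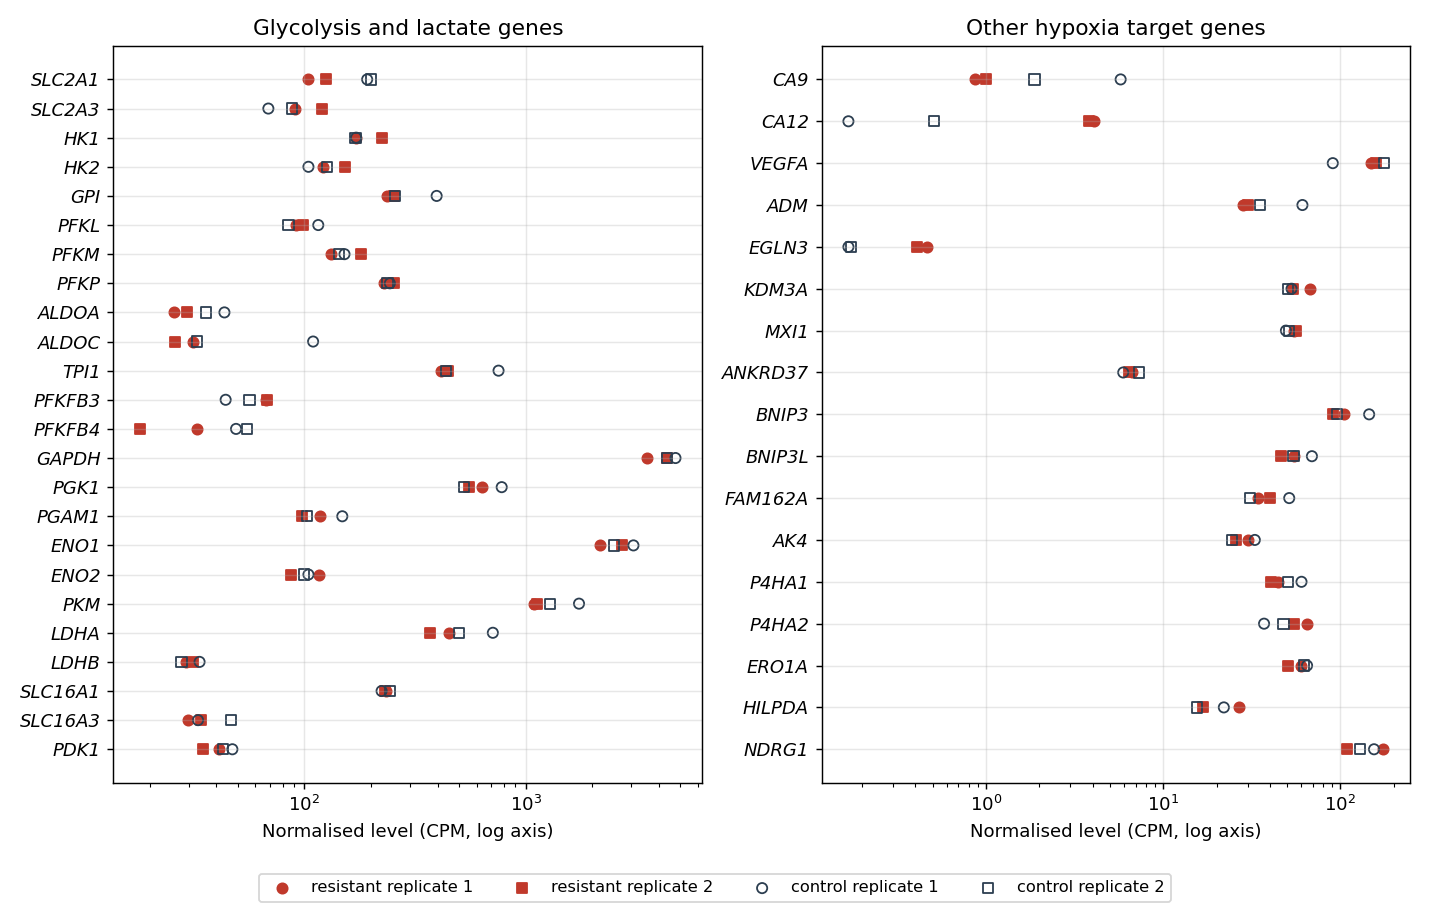
TMM-normalised CPM on a log axis of each gene in each library, with resistant libraries as filled red symbols and controls as open dark symbols (circles for replicate 1, squares for replicate 2). CA12 shows the widest gap, with 4.05 and 3.81 CPM in resistant cells against 0.168 and 0.508 CPM in controls, while many glycolysis genes have control replicate 1 apart on the right.

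The carbonic anhydrases, membrane enzymes that turn carbon dioxide into bicarbonate and protons outside the cell and so help glycolytic cells to control pH, differed most. CA12 (ENSG00000074410.14, chromosome 15, 63321378 to 63381846, minus strand, GRCh38) had 288 and 315 counts in resistant libraries, against 12 and 44 counts in controls. These correspond to 4.05 and 3.81 CPM in resistant cells and 0.168 and 0.508 CPM in controls. Both resistant libraries lay far above both controls, and the resistant pair was the tighter one. CA12 averaged 3.93 ± 0.171 CPM in resistant cells and 0.338 ± 0.241 CPM in controls (SD, n = 2 each), an 11.4-fold difference (log2 3.51 ± 0.50, SE, edgeR adjusted p = 0.0312). With control replicate 2 left out the log2 fold change was 4.54, and with control replicate 1 left out it was 2.95. Leaving out resistant replicate 2 gave 3.56 with an edgeR adjusted p of 0.132. Per length, CA12 stayed a low-abundance transcript, at 2.07 TPM in resistant cells and 0.175 TPM in controls (TPM, counts divided by exonic length and scaled to a common sum).

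CA9, the carbonic anhydrase gene most used as a hypoxia marker, was lower in resistant cells but missed the edgeR threshold. CA9 (ENSG00000107159.14, chromosome 9) had 0.872 and 1.00 CPM in resistant cells, on 62 and 83 counts, against 5.76 and 1.88 CPM in controls, on 412 and 163 counts. The groups did not overlap, but the controls differed from each other by more than control replicate 2 differed from the resistant libraries. The log2 fold change was -2.02 ± 0.52 (edgeR adjusted p = 0.131, DESeq2 adjusted p = 0.00379). It was -2.61 without control replicate 2, and -1.0 when control replicate 1 was left out instead. CA9 shares 35.7% of its exonic bases with ARHGEF39 on the opposite strand, and reads in that stretch were dropped in the counting. The log2 fold change of ARHGEF39 itself was -0.94 (edgeR adjusted p = 0.306), and its part in the CA9 values was not tested.

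Within each library the ratio of CA12 to CA9 on the TPM scale was 1.06 and 0.867 in resistant cells, against 0.00665 and 0.0616 in controls. CA12 was thus closer to CA9 per length in resistant cells than in controls. Since reads in the stretch shared with ARHGEF39 were dropped for CA9 and CA12 has no such stretch, the CA9 level is understated and the ratio overstated by an unknown amount in every library. The pair was chosen with its values known, so this ratio is a description.

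The other secreted and pH-related targets were split. VEGFA, the main vessel growth factor, had 148 and 158 CPM in resistant cells and 90.5 and 176 CPM in controls. The controls bracketed the resistant libraries, and the log2 fold change of 0.20 ± 0.29 (edgeR adjusted p = 0.838) was 0.76 without control replicate 2 and -0.19 without control replicate 1. ADM, which encodes the vasodilator peptide adrenomedullin, had 28.3 and 30.0 CPM in resistant cells and 61.0 and 35.2 CPM in controls. Resistant cells were lower without overlap (log2 -0.72 ± 0.26, edgeR adjusted p = 0.277), and the log2 fold change was -0.27 without control replicate 1.

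Of 4 genes that act back on the hypoxia response, or on gene control downstream of it, 3 had positive fold changes and 0 passed edgeR or DESeq2. An unadjusted edgeR p under 0.05 was reached by 1 of them, against 13.5% of all genes tested. EGLN3, a hypoxia-induced prolyl hydroxylase that marks HIF alpha for destruction, was barely expressed, with 33 and 34 counts in resistant cells and 12 and 15 counts in controls. That is 0.464 and 0.411 CPM in resistant cells and 0.168 and 0.173 CPM in controls, where 3 counts correspond to 0.0346 to 0.0422 CPM in these libraries. The log2 fold change of 1.35 ± 0.55 did not pass (edgeR adjusted p = 0.342). KDM3A, a histone demethylase gene, and MXI1, whose product antagonises MYC, had log2 fold changes of 0.22 and 0.15 (edgeR adjusted p = 0.670 and 0.767). In each, both resistant libraries lay above both controls, as for 22.4% of all genes tested. For KDM3A the margin was small, with 53.9 CPM in resistant replicate 2 and 53.0 CPM in control replicate 1. ANKRD37, an ankyrin repeat gene that is among the most hypoxia-responsive transcripts in many cells, had 6.65 and 6.45 CPM in resistant cells and 5.95 and 7.29 CPM in controls. The groups overlapped for ANKRD37 (log2 -0.02 ± 0.24, edgeR adjusted p = 0.988). It shares 40.3% of its exonic bases with UFSP2 on the opposite strand, and reads there were dropped. The level of ANKRD37 is thus understated by an unknown amount.

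The mitochondrial targets did not separate the groups. BNIP3, a mitophagy receptor gene, had 105 and 90.9 CPM in resistant cells and 145 and 95.4 CPM in controls (log2 -0.29 ± 0.23, edgeR adjusted p = 0.655). Its relative BNIP3L, the cell death protein gene FAM162A and the mitochondrial adenylate kinase gene AK4 had log2 fold changes of -0.29, -0.15 and -0.04. In all 4 genes the groups overlapped. Each also had its highest value in control replicate 1.

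Collagen prolyl hydroxylases, which stabilise the collagen triple helix in the endoplasmic reticulum, differed in opposite directions by subunit, and neither passed the test. P4HA2 had 64.9 and 54.8 CPM in resistant cells and 37.1 and 47.8 CPM in controls (log2 0.50 ± 0.19, edgeR adjusted p = 0.319). P4HA1 had 44.4 and 40.6 CPM in resistant cells and 60.3 and 50.4 CPM in controls (log2 -0.38 ± 0.18, edgeR adjusted p = 0.405). Neither overlapped between the groups, and the ratio of P4HA2 to P4HA1 in TPM was 0.447 and 0.412 in resistant cells, against 0.188 and 0.289 in controls. For ERO1A, an oxidase that recharges disulfide isomerases, the log2 fold change was -0.20 (edgeR adjusted p = 0.69).

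NDRG1, a stress-responsive gene strongly induced by hypoxia, had 174 and 109 CPM in resistant cells and 155 and 129 CPM in controls. Its resistant libraries lay on either side of both controls, and the log2 fold change was -0.0027 ± 0.24 (edgeR adjusted p = 0.997). HILPDA, which encodes a lipid droplet protein that inhibits fat breakdown, had a log2 fold change of 0.22 ± 0.28 with overlapping groups.

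**Figure D2:**
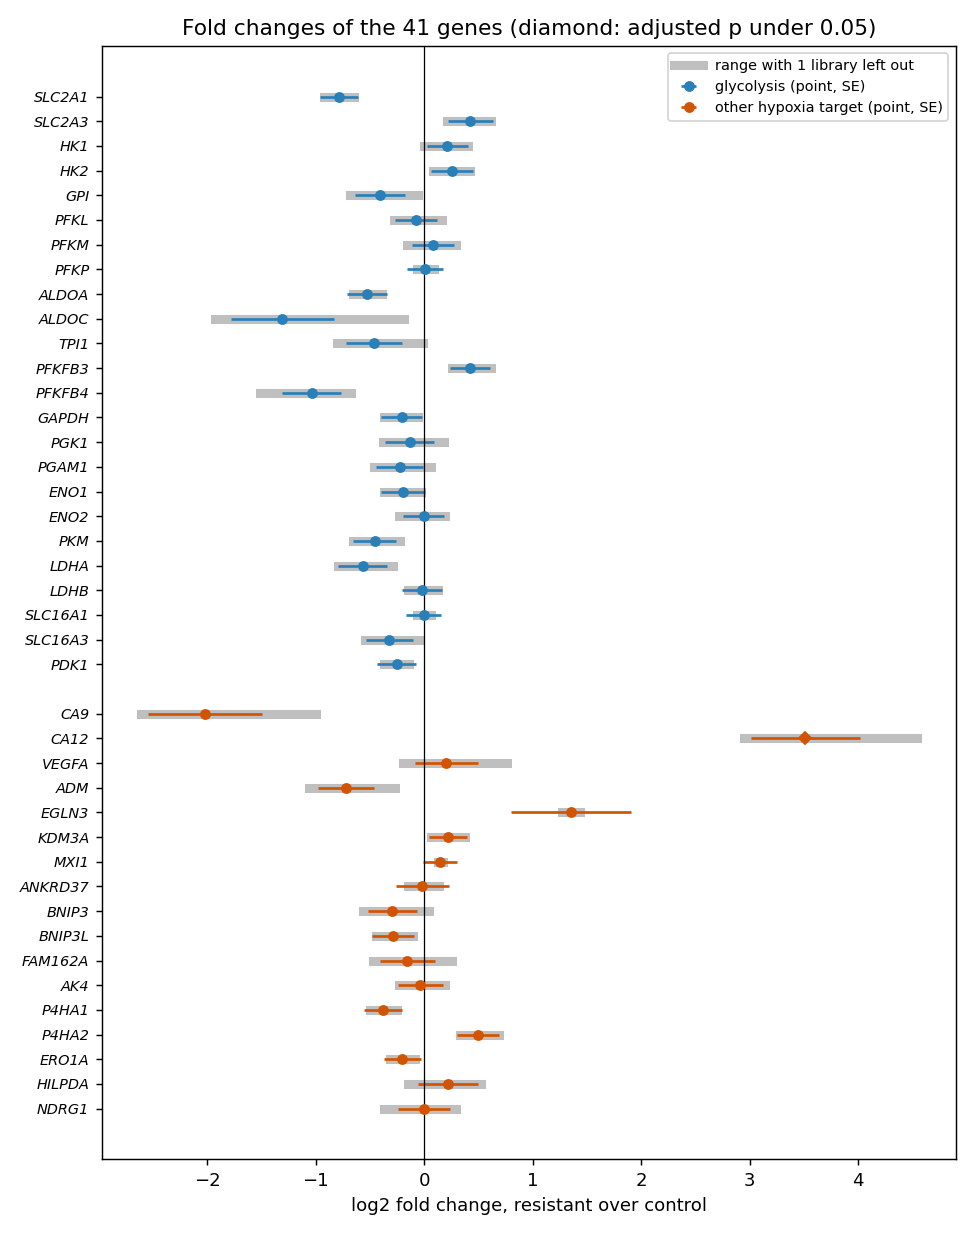
log2 fold change of each of the 41 genes, resistant over control, with its SE as a coloured bar and the range of the 4 fits with 1 library left out as a grey bar. CA12 at 3.51, drawn as a diamond, is the 1 gene past the adjusted threshold, CA9 lies opposite at -2.02, and most glycolysis genes lie between -0.57 and 0.43.

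Glycolysis genes were on balance slightly lower in resistant cells, and the size of that difference depended on 1 control library. Of the 24, 18 had a negative and 6 a positive log2 fold change, with a median of -0.20, against a median of 0.01 and 49.5% negative over all genes tested. None of the 24 passed edgeR over all genes. An unadjusted edgeR p under 0.05 was reached by 6 (1 higher, 5 lower), or 25%, against 13.5% of all genes tested. DESeq2 called 2, both lower (background 3.42%). Upper quartile scaling and library totals alone left 9 of 24 positive. Without control replicate 1 the median was -0.03 and 11 of 24 were positive, and without control replicate 2 it was -0.30. Control replicate 1 held the highest value of 13 of the 24 genes. Summed over the 24 genes, levels came to 10188 and 11641 CPM in resistant cells and to 14106 and 11669 CPM in controls, so control replicate 2 sat beside resistant replicate 2. GAPDH and ENO1 made up most of each sum, so it describes mainly these genes. GAPDH had 3525 and 4358 CPM in resistant cells and 4762 and 4343 CPM in controls. ENO1 had 2165 and 2721 CPM in resistant cells and 3074 and 2520 CPM in controls.

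The other hypoxia targets had a median log2 fold change of -0.02, with 7 of 17 positive (10 under upper quartile scaling and 9 with library totals alone). They exceeded the glycolysis median by 0.19 on the log2 scale, next to a spread between replicates of 0.14 for that difference. Taken as glycolysis minus other targets, the difference was -0.079 without resistant replicate 1, a fit in which the 17 had a median of -0.14. With control replicate 1 left out instead, the median of the 17 was 0.12. The summed level of the 17 was 905 and 785 CPM in resistant cells and 903 and 833 CPM in controls, with overlapping groups. The 17 ranged from -2.02 for CA9 to 3.51 for CA12, the 24 from -1.31 for ALDOC to 0.43 for SLC2A3.

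Among glucose transporters, SLC2A1 and SLC2A3 had fold changes of opposite sign. SLC2A1 encodes GLUT1, the widespread basal transporter and a classical hypoxia target, and had 103 and 125 CPM in resistant cells, against 192 and 201 CPM in controls. The groups were well apart and both pairs were tight. SLC2A1 averaged 114 ± 15.1 CPM in resistant cells and 196 ± 6.0 CPM in controls (SD, n = 2 each), 1.72-fold lower in resistant cells (log2 -0.79 ± 0.17). It missed the threshold in edgeR (adjusted p = 0.0892) and passed in DESeq2 (adjusted p = 0.00530), and its log2 fold change ranged from -0.93 to -0.65 with 1 library left out.

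SLC2A3 encodes GLUT3, a transporter with higher glucose affinity, and had 90.8 and 119.5 CPM in resistant cells and 68.7 and 87.9 CPM in controls. Resistant libraries lay above both controls, though resistant replicate 1 was close to control replicate 2 (log2 0.43 ± 0.21, edgeR adjusted p = 0.436). The TPM ratio of SLC2A3 to SLC2A1 was 0.958 and 1.05 in resistant cells, against 0.389 and 0.477 in controls. Per length the transporters, as counted, were thus about equal in resistant cells, while SLC2A1 prevailed in controls. SLC2A1 shares 7.51% of its exonic bases with another gene on the opposite strand, and reads there were dropped. For SLC2A3, reads that also fit elsewhere, such as its 3 annotated pseudogenes, were left out. Both levels are therefore understated by an unknown amount, and the true ratio may differ.

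The upper steps, from glucose to triose phosphates, had 4 of 9 genes with positive and 5 with negative fold changes. HK2, the hexokinase that hypoxia induces, had 122 and 153 CPM in resistant cells and 104 and 126 CPM in controls (log2 0.26 ± 0.19, edgeR adjusted p = 0.644). HK1, the housekeeping hexokinase, had a similar log2 fold change of 0.21, and both overlapped between groups. The phosphofructokinase genes PFKL, PFKM and PFKP had values of -0.07, 0.08 and 0.01, with edgeR adjusted p of at least 0.92.

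The lower aldolase and isomerase values rested to differing degrees on control replicate 1. ALDOC, the brain-type aldolase, had 31.3 and 26.0 CPM in resistant cells and 109 and 32.6 CPM in controls. Control replicate 1 alone stood high, and the log2 fold change of -1.31 ± 0.47 (edgeR adjusted p = 0.279) was -0.18 without it. TPI1, triose phosphate isomerase, had 416 and 448 CPM in resistant cells and 755 and 436 CPM in controls, and its log2 fold change of -0.46 was -0.01 without control replicate 1. GPI, glucose phosphate isomerase, had 237 and 255 CPM in resistant cells and 396 and 257 CPM in controls (log2 -0.41 ± 0.23, edgeR adjusted p = 0.514).

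TPI1 and GPI thus had control replicate 2 level with the resistant libraries. They, ALDOA, PKM and GAPDH are named here after their values were seen. ALDOA, the main aldolase of most tissues, had 25.7 and 29.4 CPM in resistant cells and 43.5 and 36.0 CPM in controls (log2 -0.53 ± 0.19, edgeR adjusted p = 0.261). It shares 42.8% of its exonic bases with another annotated gene on the same strand, and reads there were dropped, so its level is understated by an unknown amount. LDHB shares 33.4% in the same way.

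The bifunctional enzymes that set the allosteric activator of phosphofructokinase also had opposite signs. PFKFB3 had 66.9 and 67.9 CPM in resistant cells and 44.0 and 56.4 CPM in controls (log2 0.42 ± 0.18, edgeR adjusted p = 0.368). Both resistant libraries lay above both controls. PFKFB4 had 32.6 and 18.1 CPM in resistant cells and 49.1 and 54.9 CPM in controls, 2.05-fold lower in resistant cells (log2 -1.04 ± 0.28, edgeR adjusted p = 0.138, DESeq2 adjusted p = 0.0125). The groups did not overlap, and the log2 fold change was -1.51 without resistant replicate 1 and -0.67 without resistant replicate 2. The TPM ratio of PFKFB3 to PFKFB4 was 2.05 and 3.75 in resistant cells, against 0.897 and 1.03 in controls.

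PFKFB4 lies on chromosome 3 (48517684 to 48562015), in a stretch where most genes were lower in resistant cells. The 157 other tested genes with at least 1 CPM within 5 Mb had a median log2 fold change of -0.60, and 10 of them were positive. PFKFB4 lay 0.44 below that median on the log2 scale. For the other 40 genes the neighbours' median ranged from -0.15 to 0.20, so the values of CA12, CA9 and SLC2A1 were not shared by their neighbours. The part of the chromosome 3 stretch in the PFKFB4 value was not tested.

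**Figure D3:**
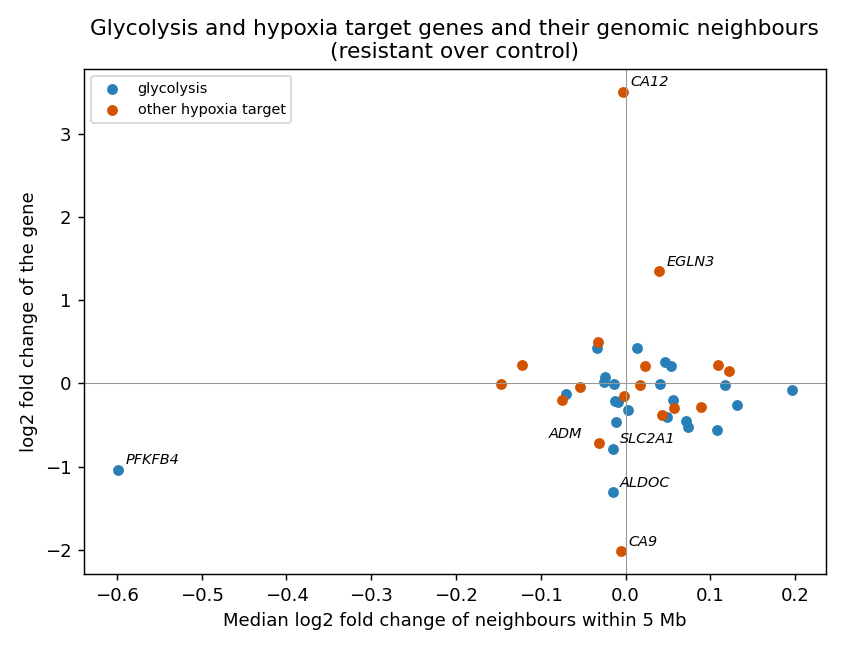
log2 fold change of each gene, resistant over control, against the median log2 fold change of other tested genes within 5 Mb of it. PFKFB4 alone sits far to the left, with neighbours at -0.60, while CA12, CA9, ALDOC, ADM and SLC2A1 lie above or below neighbours near 0.

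All 6 genes of the lower steps, from triose phosphate to pyruvate, had a negative sign, though ENO2 at -0.01 turned positive under upper quartile scaling and with library totals alone. GAPDH, the most abundant of the 41 per length, had 3525 and 4358 CPM in resistant cells and 4762 and 4343 CPM in controls (log2 -0.21 ± 0.19, edgeR adjusted p = 0.718). PKM, pyruvate kinase, had 1093 and 1121 CPM in resistant cells and 1744 and 1292 CPM in controls (log2 -0.46 ± 0.20, edgeR adjusted p = 0.383), and was the 1 gene of the 6 whose groups did not overlap. ENO1, PGAM1 and PGK1 ranged from -0.23 to -0.13.

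Of the 5 genes of pyruvate and lactate handling, all had a negative sign, though LDHB and SLC16A1, both near 0, turned positive under upper quartile scaling and with library totals alone. None of the 5 passed edgeR or DESeq2 (1 at an unadjusted edgeR p under 0.05, against 13.5% of all genes tested). LDHA encodes the lactate dehydrogenase subunit that favours lactate formation, and had 449 and 368 CPM in resistant cells and 711 and 498 CPM in controls. Both resistant libraries lay below both controls (log2 -0.57 ± 0.22, unadjusted p = 0.0361, edgeR adjusted p = 0.323), with a log2 fold change of -0.29 without control replicate 1 and -0.80 without control replicate 2. LDHB, the subunit of oxidative tissues, had 29.2 and 31.4 CPM in resistant cells and 33.6 and 27.8 CPM in controls, which overlapped. The ratio of LDHA to LDHB in TPM was 7.58 and 5.80 in resistant cells and 10.5 and 8.86 in controls. LDHB shares 33.4% of its exonic bases with another gene on the same strand, where reads were dropped, and LDHA shares 0%. That loss raised the ratio by an unknown amount in every library.

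PDK1, the mitochondrial kinase that inhibits pyruvate dehydrogenase, had 40.9 and 34.7 CPM in resistant cells and 47.2 and 42.9 CPM in controls (log2 -0.25 ± 0.18, edgeR adjusted p = 0.614). The groups for PDK1 did not overlap, by a small margin. Of the lactate carriers, SLC16A1 (MCT1) had 235 and 230.5 CPM in resistant cells and 223 and 244 CPM in controls. SLC16A3 (MCT4), the hypoxia-induced exporter, had a log2 fold change of -0.32 ± 0.21, and the groups overlapped for both carriers.

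**Figure D4:**
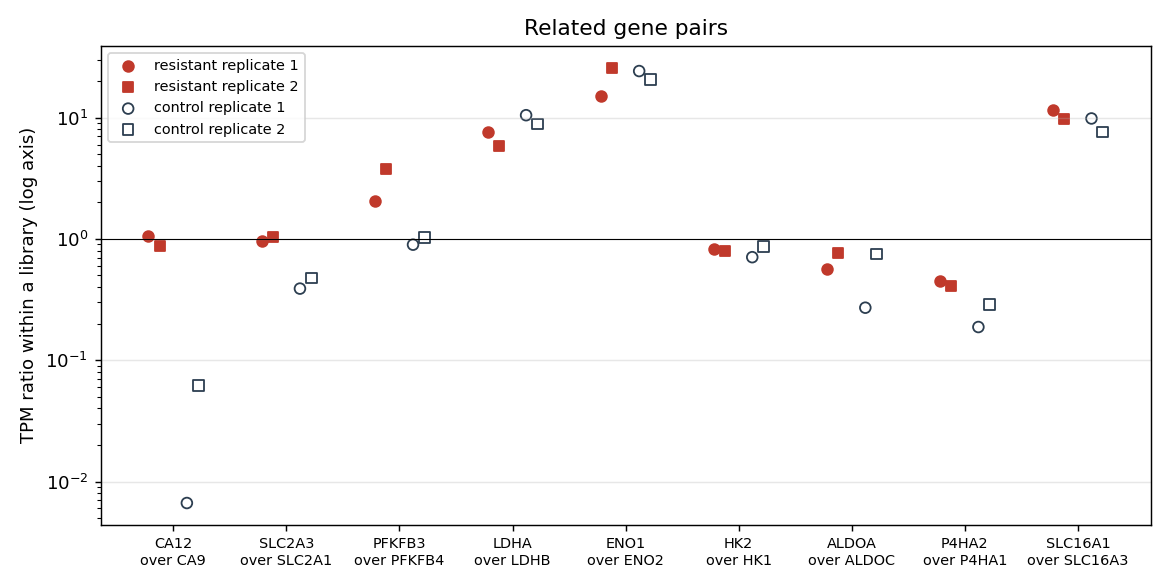
Ratio of the TPM values of 9 pairs of related genes within each library, on a log axis, with resistant libraries in red left of controls in dark. In 5 pairs the groups do not overlap, as is the case for 44.6% of single genes tested. The widest gap is that of CA12 over CA9, at 1.06 and 0.867 in resistant cells and 0.00665 and 0.0616 in controls.

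Across the 9 pairs of related genes, the groups separated in 5, namely the pairs of CA12, SLC2A3, PFKFB3, LDHA and P4HA2, and overlapped in the pairs of ENO1, HK2, ALDOA and SLC16A1. These ratios do not depend on library depth. Where a gene of a pair shares exonic bases with another gene, dropped reads shift the ratio by an unknown amount. The pairs were chosen with the single values known and carry no test. No share over all pairs of genes was computed, and for single genes the groups did not overlap in 44.6% of those tested.

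The upstream machinery of the response showed no gene past the threshold. Of 12 genes, 5 had positive and 7 negative fold changes, with a median of -0.07. None passed edgeR or DESeq2 with adjustment, and 3 (25%) had an unadjusted edgeR p under 0.05, against 13.5% of all genes tested. HIF1A had 109 and 153 CPM in resistant cells and 161 and 159.9 CPM in controls (log2 -0.29 ± 0.20, edgeR adjusted p = 0.614). EPAS1, the other alpha subunit, had 21.9 and 34.2 CPM in resistant cells and 11.7 and 18.1 CPM in controls (log2 0.91 ± 0.29, edgeR adjusted p = 0.209), and was the highest of this list.

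VHL, which lies on chromosome 3 among neighbours with a median of -0.55, had 69.5 and 63.4 CPM in resistant cells and 92.4 and 103.8 CPM in controls (log2 -0.56 ± 0.16, edgeR adjusted p = 0.177). The groups did not overlap. ARNT and the prolyl hydroxylase gene EGLN1 had log2 fold changes of -0.04 and -0.11. HIF3A had the lowest of the list, -1.16 ± 0.74, on 5 and 12 counts in resistant cells and 16 and 23 counts in controls.

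A further 25 hypoxia targets outside the 41 gave no shared direction, with 12 of 23 tested positive and a median of 0.06. Among the negative ones, BHLHE40, TMEM45A and GBE1 lie on chromosome 3, at log2 fold changes of -0.23, -0.38 and -0.73. Their neighbours within 5 Mb had medians of -0.68, -0.66 and -0.81, and the part of these neighbours in the sign count was not tested. None of the 23 passed the adjusted edgeR threshold. An unadjusted p under 0.05 was reached by 6 (26.1%), against 13.5% of all genes tested. DESeq2 called RORA and the hormone gene STC1 higher (background 3.04%), and LOXL2 and the cyclin gene CCNG2 lower (background 3.42%). The highest was RORA, a nuclear receptor gene, with 9.33 and 6.33 CPM in resistant cells and 3.27 and 3.07 CPM in controls (log2 1.30 ± 0.28, edgeR adjusted p = 0.0862). The lowest was LOXL2, a lysyl oxidase gene of matrix cross-linking, with 65.2 and 141 CPM in resistant cells and 315 and 229 CPM in controls (log2 -1.40 ± 0.35, edgeR adjusted p = 0.121).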

How the data were processed

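Per the file headers, the deposited raw counts per gene came from featureCounts 2.0.0 with GENCODE release 42 on duplicate-marked alignments, with no option beyond annotation and output. STAR, featureCounts, DESeq2 and GRCh38 are named in the submitters' processing notes. By that program's defaults strand was ignored, mates were counted singly, and reads fitting several places or genes were left out, which affects genes with pseudogenes or overlapping neighbours. Groups came from the labels' titles. For resistant libraries, file names carry other numbers than the labels' library names, and each file was assigned to the record it was deposited under.

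Counts of all genes were filtered with filterByExpr, scaled with TMM and tested with edgeR 4.0.16 (R 4.3.3, limma 3.58.1), resistant over control, two-sided, with group as the sole term and Benjamini-Hochberg adjustment over 24961 genes at 0.05. The biological coefficient of variation was 25.5%. SE was taken as the absolute log2 fold change over the root of the F statistic. DESeq2 1.42.0 served as an alternative. TPM used the exonic lengths in the count files. Floors of 3 counts cover counting error only, whereas the printed SD and SE include variation between replicate libraries. Replicates were not copies of one library (their counts gave chi-square values per degree of freedom of 54.4 in resistant and 101 in control libraries). The test was checked on simulated counts.

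Genes, lists and named genes were chosen with earlier results of these data known. Values per library are given for genes past the threshold, for a fixed list of genes, and for the 3 highest and 3 lowest fold changes in each class. Outside the 41, HIF1A, EPAS1, ARNT, VHL, EGLN1 and the highest and lowest of each list are named. Listed genes that DESeq2 called or that lie on chromosome 3 are named as well. A further deposited table of log fold changes names no comparison and was not used here.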

Additional observations from a re-analysis of the deposited data

How the results depend on the processing

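With 272 changed genes and 1 changed gene among the 41, DESeq2 called 1332 genes and 4 of the 41 (CA12, CA9, PFKFB4, SLC2A1), and edgeR with no filter on low counts 1866 and 6 (also ADM and ALDOC). Leaving out 1 library gave 16 to 2166 changed genes and 0 to 8 among the 41. In those fits the lone library of a group was assumed to vary like the other group, so the counts mix effect and spread. Labels share replicate numbers, but same-numbered libraries did not deviate together (r = -0.01, equal for both numbers by construction). With the replicate block 64 genes and 0 of the 41 were called, CA12 at an adjusted p of 0.0618. RLE or upper quartile scaling, library totals, control replicate 1 divided by 2, and added pseudogene counts each left CA12 as the 1 gene called. CA12 kept a positive sign in every fit, at an adjusted p from 1.55e-13 to 0.132. The medians of both classes and their difference moved by no more than the spread between replicates, 0.14 to 0.20 on the log2 scale. That spread comes from the same libraries, so leaving 1 of them out could hardly move a median further. Stability can therefore not be read from it. Without control replicate 1 the glycolysis median went from -0.20 to -0.03, which left little of it. With 1 library left out 16 of the 41 changed sign in at least 1 fit, and 6 did so under another scaling, each within 0.05 of 0. Of 492 gene values under alternatives, 18 gained and 2 lost a call, and 0 were called with the opposite sign.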

Other observations

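The pentose phosphate and TCA cycle lists had their lowest values at genes on chromosome 3. In the pentose phosphate list, 5 of 7 genes had a negative sign and 0 passed edgeR. An unadjusted edgeR p under 0.05 was reached by 1 (14.3%), against 13.5% of all genes tested, and DESeq2 called 1, TKT. TKT, transketolase, had 422 and 585 CPM in resistant cells and 1215 and 973 CPM in controls (log2 -1.12 ± 0.22, edgeR adjusted p = 0.0675), and RPE was the highest at 0.30. In the TCA cycle list 0 passed edgeR, and 8 of 15 had a negative sign. An unadjusted edgeR p under 0.05 was reached by 1 (6.67%), against 13.5% of all genes tested, and DESeq2 called 1, SUCLG2. SUCLG2, a succinyl-CoA ligase subunit, was lowest at -1.33 ± 0.28 (66.9 and 113 CPM in resistant cells, 263 and 188 CPM in controls, edgeR adjusted p = 0.0795). SDHC was highest at 0.13. Neighbours within 5 Mb had medians of -0.62 for TKT and -0.54 for SUCLG2, and their part in these values was not tested.

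Among 24 tested genes of other glycolytic and pyruvate steps, 10 had a positive sign, the median was -0.14, and 0 passed edgeR. An unadjusted edgeR p under 0.05 was reached by 6 (25%), against 13.5% of all genes tested. DESeq2 called TIGAR higher and PDHB and PDP1 lower (background 3.04% higher and 3.42% lower). PDHB lies on chromosome 3 among neighbours with a median of -0.59, and their part in its value was not tested. HKDC1, a hexokinase-like gene, was highest at a log2 fold change of 1.57 ± 0.58, on 8.98 and 39.7 CPM in resistant cells and 6.79 and 9.64 CPM in controls, with resistant replicate 1 inside the control range. FBP1, the gluconeogenic fructose bisphosphatase on chromosome 9, was lowest, on 5 and 0 counts in resistant cells and 16 and 16 counts in controls. Its neighbours had a median of 0.01. Over the 81 tested genes of all outside lists the median was -0.03.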
